A study of Trichosurus vulpecula with 6 samples.

Results

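The HOX genes of the common brushtail possum (Trichosurus vulpecula) were followed in ear skin. They were taken from the possum RefSeq table (assembly mTriVul1.pri) by a symbol of the form HOXA, HOXB, HOXC or HOXD and a number, leaving out HOXC13. The 37 genes described here included 10 that had an assembled transcript in at least 1 library, out of 18212 genes with an assembled transcript in all. HOX genes encode homeodomain transcription factors that lie side by side in 4 clusters, HOXA to HOXD. Genes with the same number in different clusters are paralogues, and low numbers are used near the head end of the embryo while high numbers are used near the tail and, in HOXA and HOXD, in the far parts of the limbs. Skin fibroblasts of adult mammals are known to keep part of the HOX pattern of the place where they arose, so these genes are read as a record of position in the body.

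Poly(A)-enriched, strand-specific RNA-sequencing was carried out on ear punch skin of adult female possums from Dunedin, New Zealand, 3 with grey and 3 with black fur, 1 library per animal and without any treatment. The animals were wild and were grouped by fur colour alone. A punch holds every cell type of the ear, and in such bulk samples fewer cells of a type cannot be told apart from less RNA per cell. Levels are given in TPM, a measure of abundance per base of transcript that is scaled to the same total in every library, summed over the transcripts of a gene. The transcripts had been assembled in each library separately, so 0 TPM means that no transcript was assembled and not that the gene was silent.

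The libraries held 4.17 to 10.2 gigabases of aligned sequence, with the shallowest (grey 1) and the deepest (grey 3) both in the grey group, and the lowest TPM listed in a library ranged from 0.187 to 0.465. Among cell type markers, the summed level of 6 skeletal muscle genes was 3881 TPM in black 1 and 73.1 to 128 TPM in the other libraries, where CKM was at 0 TPM and most of the sum was MB. The summed level of 6 dermal fibroblast genes was 996 TPM in grey 3 and 2401 to 3758 TPM elsewhere, with all 6 present in every library. Black 3 had the highest sum of 5 macrophage and dendritic cell genes, 963 TPM against 122 to 395 TPM. Grey 1 had the highest sums of 6 cartilage genes (457 against 169 to 244 TPM) and of 6 hair follicle genes (95.03 against 23.5 to 38.1 TPM). Of 8 keratinocyte markers, 2 (IVL and TP63) had an entry in the gene table under their symbol.

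The HOX genes assembled in all 6 libraries were of paralogue groups 2 and 3 (HOXA2 and HOXD3) and 8 to 10 (HOXD8, HOXD9 and HOXD10). Of the 7 members described in paralogue groups 1 to 3, 4 were assembled, 2 of them with a mean of 1 TPM or more. Of the 10 members in groups 8 to 10, 3 were assembled, and these 3 had a mean of 1 TPM or more. Between them, in groups 4 to 7, 2 of 12 members were assembled, neither with a mean of 1 TPM or more. These counts pool the clusters. In HOXD the only gene of groups 4 to 7 is HOXD4, so HOXD3, HOXD4, HOXD8, HOXD9 and HOXD10 are direct neighbours. HOXD4 had a level in 1 library, and in 4 when joined transcripts were divided between HOXD4 and HOXD3, a choice made after seeing the data. In groups 11 to 13, 1 of 8 members was assembled, in 1 library. In all, 5 members had a transcript in all 6 libraries, and these were also the members whose mean reached 1 TPM: HOXA2, HOXD3, HOXD8, HOXD9 and HOXD10.

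**Figure D1:**
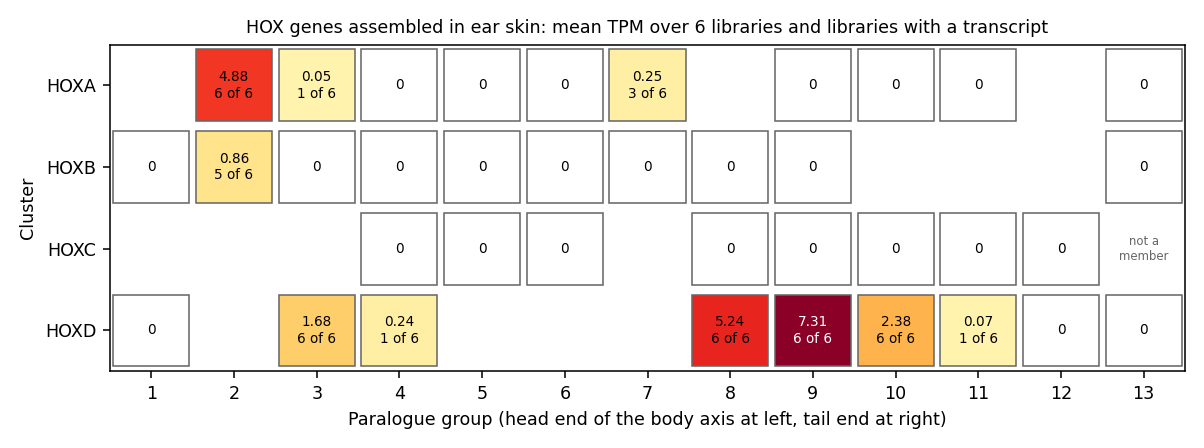
HOX genes by cluster (rows) and paralogue group (columns), with the mean TPM over 6 libraries and the number of libraries with an assembled transcript in each box. White boxes marked 0 are genes with no transcript in any library. Places without a box hold no gene described here. Boxes with all 6 libraries lie in paralogue groups 2, 3 and 8 to 10 of HOXA and HOXD, and every HOXC box is at 0.

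HOXD carried most of the summed level of the members described. Its genes made up 73.7% of the TPM summed over members and libraries, those of HOXA 22.6%, those of HOXB 3.74% and those of HOXC 0%. In HOXA, HOXA2, HOXA3 and HOXA7 were assembled, and the 7 members at 0 TPM in all libraries were HOXA4, HOXA5, HOXA6, HOXA9, HOXA10, HOXA11 and HOXA13. HOXB has 10 members, of which 1 was assembled, HOXB2. All 8 HOXC members (HOXC4, HOXC5, HOXC6, HOXC8, HOXC9, HOXC10, HOXC11 and HOXC12) were at 0 TPM. HOXD has 9 members, of which 6 were assembled, and those at 0 TPM were HOXD1, HOXD12 and HOXD13. The excluded gene of the HOXC cluster, HOXC13, which is known for its role in hair and nail keratins, was at 5.26 to 15.7 TPM. Its mean of 8.47 TPM was above that of every member described, the highest being HOXD9 at 7.31 TPM. The cluster shares above leave HOXC13 out, so the 0% of HOXC holds only without it.

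The number of members with a transcript was 6, 6 and 9 in grey 1, 2 and 3, and 8, 6 and 6 in black 1, 2 and 3. The count was highest in the deepest library, grey 3, but did not otherwise follow depth. Black 2, with 8.51 gigabases aligned, had 6 members, as did the shallowest, grey 1, with 4.17. Black 1, with 7.58 gigabases, had 8. Without grey 3 the count over libraries was 8, and without black 1 it was 9. Summed over members, the level was 24.9, 21.0 and 18.0 TPM in grey skin (21.3 ± 3.45, SD, n = 3) and 27.9, 22.9 and 23.1 TPM in black skin (24.6 ± 2.85, SD, n = 3). The colours overlapped.

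HOXA2, which is known to set the identity of the second pharyngeal arch, from which part of the outer ear forms, was at 3.82, 3.72 and 4.38 TPM in grey skin. In black skin it was at 5.43, 5.22 and 6.70 TPM. Every black library lay above every grey one, and the means were 3.97 ± 0.35 for grey against 5.78 ± 0.80 TPM for black skin (SD, n = 3). The exact two-sided permutation p was 0.1, the smallest that 3 against 3 libraries allow, and 0.7 after Benjamini-Hochberg adjustment over the 7 members tested in this way. The assembled HOXA2 transcripts ranged from 614 to 1473 nt, and a level per transcript length moves with that length. On the 592 bases assembled in all libraries, coverage on the TPM scale was 6.89, 5.0 and 5.34 in grey and 5.41, 6.80 and 7.68 in black skin, where the colours overlapped (exact permutation p = 0.4). On both scales HOXA2 was highest in black 3, the library with the highest macrophage markers, whose part in this level was not tested. Without black 3 the limma log2 difference of HOXA2 was 0.35, against 0.44 with it.

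HOXA3, which acts in the pharyngeal arches, had 1 transcript, in grey 3, at 0.31 TPM. HOXA7, a trunk gene, was at 0.79 TPM in grey 1, 0.37 TPM in grey 3 and 0.37 TPM in black 1, and had no transcript in the other libraries. Its coverage corresponded to 3.71 to 7.84 reads of 120 bp in each of these, so detection at this depth rested on a few reads. HOXB2, a hindbrain gene and the paralogue of HOXA2, had no transcript in grey 1. It was at 0.90 and 0.83 TPM in grey 2 and 3, and at 0.89, 0.97 and 1.56 TPM in black 1, 2 and 3 (exact permutation p = 0.2, adjusted p = 0.7). The missing value of HOXB2 is in the shallowest library.

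HOXD9 was the member of highest mean level among those described, 7.31 TPM, and 42.2% of all genes with a transcript had a lower mean. HOXD9 and its neighbours HOXD8 and HOXD10 are known for roles in the trunk and the limb bud. It was at 8.49, 7.81 and 4.61 TPM in grey skin and at 7.48, 7.71 and 7.75 TPM in black skin. Among the members described, HOXD9 was the highest in 5 libraries and HOXD8 in black 1, but this order moved with transcript length. On the bases assembled in all libraries HOXD9 was the highest in 4 libraries, black 1 among them, and HOXA2 in grey 3 and black 3. HOXD8 was at 6.08, 4.82 and 3.59 TPM in grey skin and at 8.10, 4.99 and 3.87 TPM in black skin. HOXD9 was lowest in grey 3, the library with the lowest fibroblast markers, in TPM and on the bases assembled in all libraries (4.51). HOXD8 was lowest in grey 3 in TPM, but on those bases it was lowest in black 3 (3.11, against 3.24 in grey 3). On both scales HOXD8 was highest in black 1, the library with the muscle markers. The part of these cell types in the HOX levels was not tested.

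HOXD10 was at 2.22, 2.49 and 2.30 TPM in grey and 2.73, 2.58 and 1.95 TPM in black skin, and on the 278 bases assembled in all libraries it ranged from 1.60 to 2.81. Its TPM range lay wholly below those of HOXA2, HOXD8 and HOXD9, whose ranges overlapped each other. HOXD3, a head-end gene of its cluster, was at 3.48, 1.24 and 1.18 TPM in grey and 1.46, 1.39 and 1.31 TPM in black skin. Grey 1 was also the library with the highest cartilage and hair follicle markers. Its high value was the sum of 2 transcripts that each covered a different stretch of the gene, at 2.05 and 1.43 TPM. On the 2383 bases assembled in all libraries, HOXD3 in grey 1 was at 1.57, within the range of 1.24 to 1.64 over the libraries. Transcripts were assigned to HOXD4 only in black 1, at 1.47 TPM, and each shared an intron with transcripts counted for HOXD3 in other libraries. HOXD11, a gene of the tail end and the limbs, had a transcript only in grey 3, at 0.44 TPM.

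**Figure D2:**
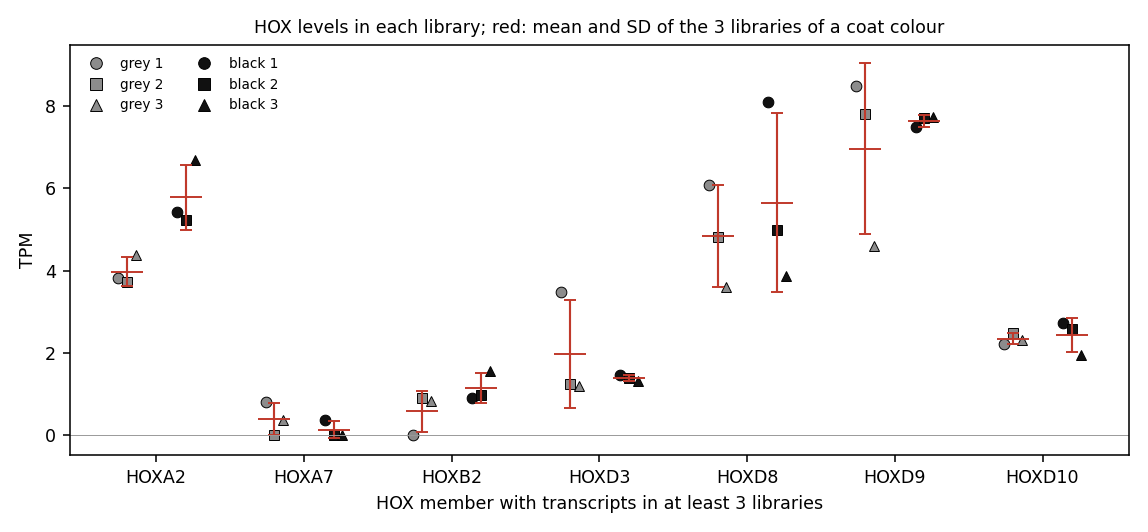
TPM of the 7 HOX members with transcripts in at least 3 libraries, 1 point per library, grey skin left and black skin right of each name, with the mean and SD of 3 libraries in red. The points of HOXA2 separate by colour, from 3.72 to 4.38 TPM in grey and from 5.22 to 6.70 TPM in black, and those of the other members overlap. On the 592 HOXA2 bases assembled in all libraries the colours overlapped. Of all genes tested, 4.07% had every black library above every grey one.

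To ask whether fur colour went with HOX levels, limma was run on log2(TPM + 1) for 15668 genes whose mean level reached 1 TPM. Of these genes, 3 (0.0191%) passed an adjusted p of 0.05, with 0.0128% higher and 0.00638% lower in black skin, and 357 passed an unadjusted p of 0.05. Of the 5 HOX members tested, 0 passed either threshold in either direction. The other 5 assembled members were below the filter on low values, and 27 had no transcript. HOXA2 was the member of smallest p, with a log2 difference of 0.44 (black minus grey, SE 0.21, 95% interval -0.05 to 0.94, limma adjusted p = 1.00). The difference of HOXD10 was 0.03 (95% interval -0.57 to 0.63), that of HOXD9 was 0.15 (-0.44 to 0.74) and that of HOXD8 was 0.16 (-0.57 to 0.90). The difference of HOXD3 was -0.23 (-1.13 to 0.68), and it was 0.11 without grey 1. Each of these intervals included 0. The median difference was 0.15 over the 5 members and 0.04 over all genes tested. Of all genes tested, 4.07% had every black library above every grey one and 2.27% every black library below, against 1 and 0 of the 5 HOX members. The p-values rest on these 6 animals alone, and limma draws the variance of each gene towards a trend over all genes tested.

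Splicing was read from the assembled introns. An intron is seen only where a transcript reaches across it, and the TPM given for an intron moves with transcript length. For HOXA2 (chr5:18466973-18468749) an intron of 637 nt was found in all 6 libraries, and a form with an intron of 566 nt in black 2.

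The HOXD cluster lies on chromosome 2 (chr2:230815896-230921785, plus strand). HOXD10 (chr2:230843013-230845480) had an intron of 1445 nt in 5 libraries, and a single-exon transcript in grey 1, the shallowest. HOXD9 (chr2:230849306-230851541) had introns of 380 and 331 nt in all 6 libraries. The intron of 331 nt was carried by 2.90, 1.63 and 0.51 TPM in grey and 3.93, 3.16 and 0.47 TPM in black skin, and was lowest in grey 3 and black 3. HOXD8 (chr2:230857433-230858783) had a last intron with 2 acceptors 3 nt apart, of 415 and 418 nt, each in 5 libraries. Grey 1 had only the longer form and black 3 only the shorter. In grey 1 and black 2 a HOXD8 transcript began at an upstream exon across an intron of 2527 nt. The HOXD8 transcripts ended 1168 to 1199 bases past the RefSeq 3′ end and those of HOXD10 620 to 644 bases past it, while those of HOXD9 ended within 26 bases of it.

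HOXD3 (chr2:230887612-230904627) and HOXD4 (chr2:230881534-230886235) could not be separated fully. In grey 3, black 2 and black 3 a transcript joined exons inside the HOXD4 span to the HOXD3 exons across an intron of 12453 nt (chr2:230882907-230895359). These were counted for HOXD3, with which they shared most bases. When their TPM was divided by shared bases, a choice made after seeing the data, HOXD4 had a level in 4 libraries, of 0.19 in grey 3, 1.47 in black 1, 0.32 in black 2 and 0.27 TPM in black 3. The last HOXD3 intron, of 1894 nt, was found in all 6 libraries.

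**Figure D3:**
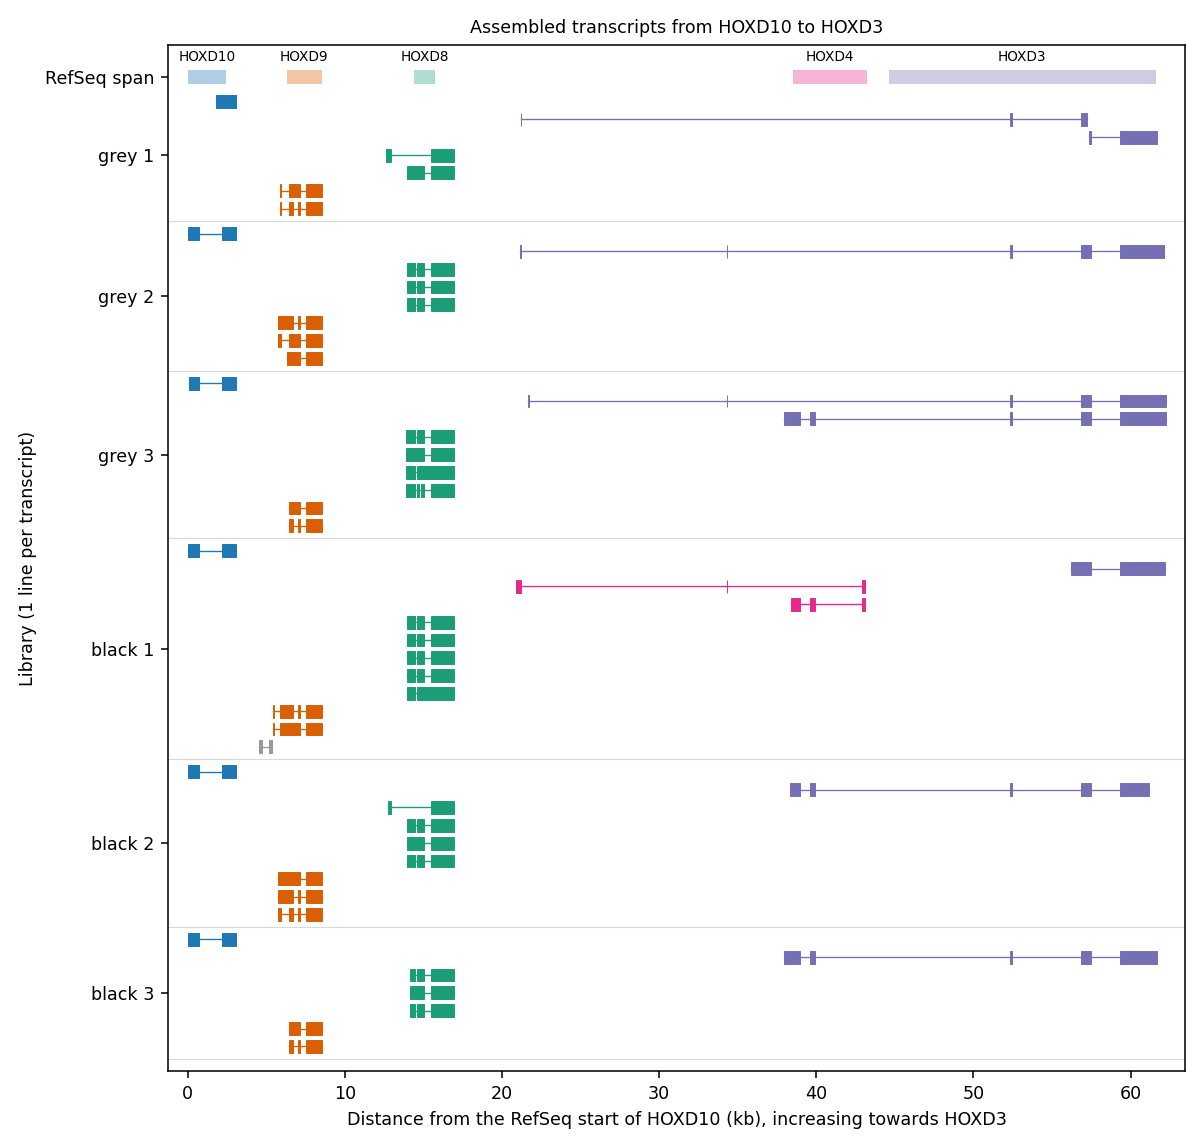
Transcripts assembled in each library from HOXD10 to HOXD3, by distance in kb from the RefSeq start of HOXD10, with exons as boxes and introns as lines, 1 colour per gene. HOXD8 (green) and HOXD9 (orange) were assembled in several forms per library, and joined HOXD4 to HOXD3 transcripts (purple) stand in grey 3, black 2 and black 3.

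Neighbouring transcripts of the HOXB and HOXD clusters were also read. A same-strand transcript of 2 exons between HOXD3 and HOXD1 was at 0.75 to 1.65 TPM in 5 libraries and was not assembled in black 3. In HOXB, an opposite-strand transcript between HOXB2 and HOXB3 was at 2.75 TPM in grey 1 and 0.55 TPM in grey 2 only. LOC118848082 is a single-exon gene of 486 nt between HOXB9 and HOXB13, with transcripts on the strand opposite to the HOXB members. It was at 75.0, 203 and 631 TPM in grey and 47.2, 119 and 123 TPM in black skin (exact permutation p = 0.3). The pseudogene LOC118846971, in the same cluster, was at 0 TPM.

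HOX proteins bind DNA with cofactors of the TALE class. All 9 TALE genes listed were assembled in all 6 libraries, among them PBX2 (20.3 to 30.1 TPM) and MEIS1 (11.4 to 23.6 TPM), and of the 8 tested 0 passed limma's adjusted threshold or an unadjusted p of 0.05 (median log2 difference -0.04, against 0.04 over all genes tested). Of all 15668 genes tested, 357 passed an unadjusted p of 0.05 in limma and 3 (0.0191%) passed the adjusted threshold. Polycomb proteins keep silent HOX genes closed and trithorax proteins keep active ones open. All 17 Polycomb genes and 12 trithorax genes were assembled in every library, and 0 of either passed at an adjusted or unadjusted p of 0.05 (median log2 differences -0.01 and -0.01). The Polycomb genes were led by RING1 (58.1 to 79.7 TPM), EZH2 (25.7 to 40.4 TPM) and SUZ12 (18.7 to 27.8 TPM), and the trithorax genes by DPY30 (36.0 to 41.6 TPM), KDM6B (26.4 to 39.2 TPM) and WDR5 (26.7 to 31.7 TPM).

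Retinoic acid is an activator of head-end HOX genes in the embryo. Of 18 retinoid genes listed, 13 had an entry in the table under their symbol, and all of these were assembled and tested, with 0 called by limma at an adjusted or unadjusted p of 0.05 (median log2 difference -0.14). Over all 15668 genes tested, 357 passed that unadjusted threshold. CRABP2, which carries retinoic acid in the cell, ranged from 109 to 374 TPM and the receptor RARG from 124 to 154 TPM. The degrading enzymes CYP26A1, CYP26B1 and CYP26C1 had no entry under these symbols and were not analysed here.

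Genes that mark other body regions were read beside the HOX genes. The list a gene was placed in need not be its only region. Of 32 face and ear patterning genes in the table, 29 were assembled, 24 were tested and 0 passed limma's test at an adjusted or unadjusted p of 0.05 (median log2 difference -0.01). PRRX1, a gene of head and limb mesenchyme, was at 47.3 to 70.0 TPM, TFAP2A at 31.1 to 44.4 TPM and TFAP2B at 17.4 to 42.0 TPM, both of them genes of neural crest and surface ectoderm. EMX2 was at 5.06 to 11.6 TPM and ALX4 at 0.48 to 1.66 TPM, while OTX2, a forebrain and midbrain gene, was at 0 TPM. Of 19 limb and trunk genes in the table, 12 were assembled, 9 were tested and 0 passed limma's adjusted threshold (median log2 difference -0.04). At an unadjusted p of 0.05 there was 1, LMX1B, a gene of the dorsal limb that was named after its values were seen. It was at 3.58, 4.16 and 3.57 TPM in grey and 2.44, 2.34 and 1.70 TPM in black skin (limma adjusted p = 1.00). Over all 15668 genes tested, 357 passed an unadjusted p of 0.05 in limma, so 1 of 9 is not read as a result about this list. IRX3 was at 23.1 to 46.8 TPM and GDF11 at 5.48 to 12.4 TPM. TBX15 was at 7.18 to 12.2 TPM in 5 libraries and at 26.7 TPM in black 1, the library with the muscle markers, whose part in this level was not tested. PITX1, a hindlimb gene, had a transcript in grey 3 (0.21 TPM) and black 1 (1.17 TPM). TBX5 and TBX4, which mark forelimb and hindlimb, EN1, CDX1 and CDX2 were at 0 TPM in all libraries. A list of 9 ParaHox, HOX-linked and other homeobox genes was at 0 TPM as well. It held EVX1 and EVX2 at the cluster ends, and also NANOG.

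**Figure D4:**
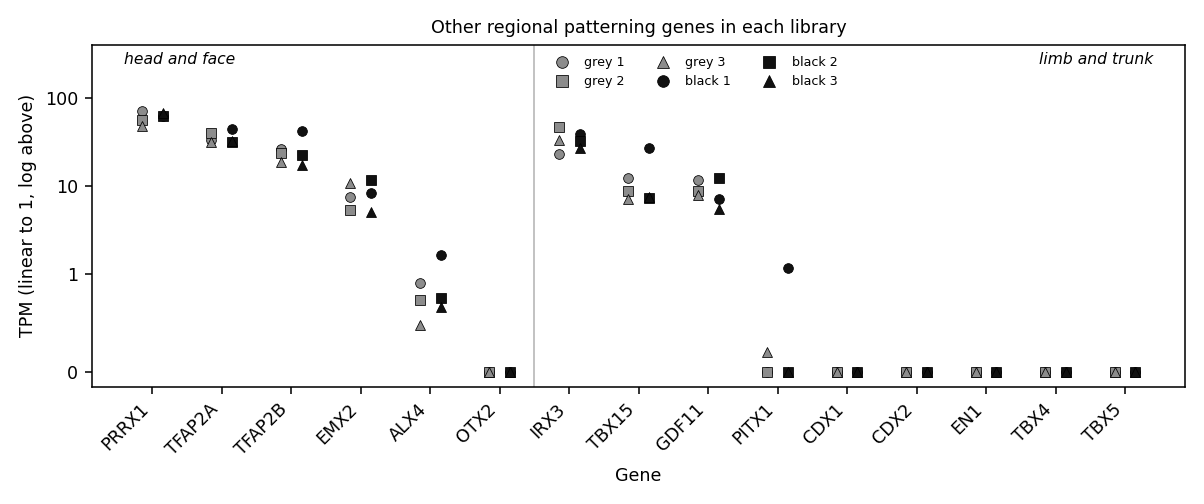
TPM of region-marking genes in each library (linear to 1, log above), with grey skin left of black skin for each gene. Genes of the face and ear list stand left and those of the limb and trunk list right of the line. The list a gene stands in need not be its only region. TBX15 in black 1 stands at 26.7 TPM, and OTX2, CDX1, CDX2, EN1, TBX4 and TBX5 lie at 0 in all 6 libraries.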

How the data were processed

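Libraries from 6 animals were sequenced as single reads of 120 bp. Per the submitters' processing notes the authors used Trim Galore (version 0.6.10), HISAT2 (version 2.2.1) and StringTie (version 2.2.0), assembling each library separately. The deposited text gives coverage, FPKM and TPM per transcript and other attributes, which are normalized values, and count tests were therefore not applied. Aligned bases were taken from the ratio of coverage to FPKM. Of 274079 transcripts, 231645 were assigned to RefSeq genes of mTriVul1.pri by exon overlap on the same strand and 1310 by the name attribute, which held 0 HOX names. The table gives spans without exons or strand: strand and exons came from matching transcripts, and the strand of HOX genes from the order of their numbers along a cluster. Levels were compared with limma (version 3.58.1, run in R 4.3.3, with the variance trend of eBayes and Benjamini-Hochberg adjustment) on log2(TPM + 1), a scale that understates changes of low genes, and single members with transcripts in at least 3 libraries by exact permutation over 20 assignments. The fit was tested on simulated data. All HOX members described were named, with the 3 genes of highest mean of each other list, genes marking body regions and neighbours in the clusters. The members and lists were chosen with earlier results of these data known. Among the genes that meet these rules, 1 HOX gene and a few others are not reported here, and HOX counts and sums leave that gene out. HOX sequences were not analysed here.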

Additional observations from a re-analysis of the deposited data

How the results depend on the processing

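The number of HOX members called between the colours was 0 in all 16 alternatives that could be fitted. Of 80 member differences under these alternatives, 6 changed sign and 0 passed the threshold, with a lowest limma adjusted p of 0.99. The log2 difference of HOXD10, 0.03, became 0.59 with multi-exon transcripts only, where its single-exon transcript in grey 1 drops out and leaves 0, and -0.0044 with quantile normalization. When 1 library was left out, differences ranged from -0.037 to 0.13 for HOXD10 (below 0 without black 1 or black 2, -0.0066), from -0.41 to 0.11 for HOXD3 (above 0 without grey 1), from -0.081 to 0.30 for HOXD9 (below 0 without grey 3) and from -0.087 to 0.36 for HOXD8 (below 0 without black 1). On the bases assembled in all 6 libraries, an alternative chosen after seeing the data, the difference of mean TPM went from -0.58 to 0.20 for HOXD3, from 0.084 to -0.044 for HOXD10, from 1.81 to 0.88 for HOXA2 and from 0.68 to 1.15 for HOXD9. Beside 10 members with a transcript in any library, 6 had a mean of at least 0.5 TPM, 5 a mean of at least 1 TPM and 5 a level in all libraries, and the count was 8 to 10 when 1 library was left out. The name attribute held no HOX gene and gave no HOX value. Over all genes, 3 were called, against 0 with the name attribute alone (732 genes tested), 0 with a replicate block and 0 to 3 when 1 library was left out (0 without grey 2 and 1 without black 2). The replicate numbers gave no sign of a pairing, though a check on 3 libraries a colour is too small to exclude one. Deviations of same-numbered libraries from their colour means correlated at -0.021, 0.0093 and -0.054. Of 3 grey libraries, 0 correlated best with their own number. With 3 libraries a colour, and a gene listed at 0 below about 0.187 to 0.465 TPM, low HOX genes can be missed.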
